A study of Homo sapiens with 16 samples.

Results

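The comparison was of cytoplasmic lysate RNA (Input) from Gemin5-silenced HEK293 cells (siRNAG5) with Input RNA from control cells (Ctrl), read across functional gene classes. Its members were the 8 Input libraries among the 16 libraries of the series, chosen by their labels, with 4 independent biological samples of siRNAG5 and 4 of Ctrl. Every library came from HEK293, a long-established human cell line of embryonic kidney origin. The siRNAG5 cells had received 100 nM of 1 small interfering RNA (siRNA) duplex against Gemin5, so effects of Gemin5 loss and of this duplex cannot be told apart. By their labels the Ctrl cells were untreated, but the study's methods name a control siRNA, and the question was not settled here. All lysates were prepared with cycloheximide, which holds ribosomes on mRNAs, and polyadenylated RNA was sequenced with strand kept.

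Gemin5 is an RNA-binding protein of the SMN complex, the assembly that loads rings of Sm proteins onto the small nuclear RNAs of the spliceosome, and it is the subunit that recognises those RNAs. It also exists outside the complex, binds ribosomes and controls the translation of selected mRNAs. An siRNA is a short duplex whose antisense strand guides cleavage of a fully matching mRNA, and whose seed (bases 2 to 8 of that strand) can also lower mRNAs that match it in the 3' untranslated region (3' UTR).

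The strands of the siRNAs are given because their seed was searched in all 3' UTRs. They are written 5' to 3' with the seed in capitals. The sense strands are those of the labels without their overhang, and the antisense strands are their complements.
Gemin5 siRNA, antisense strand: uUUCUCUUcuugauuaagg
Gemin5 siRNA, sense strand: cCUUAAUCaagaagagaaa
control siRNA, antisense strand: cUAAUACAggccaauacau
The Gemin5 antisense strand matched 1 gene over all 19 bases, GEMIN5, and the control antisense strand matched 0. The site in GEMIN5 lies in the coding sequence of exon 18 of 28, on the minus strand of chr5:154904608-154904626 of GRCh38. In the mRNA it reads as follows, with the match to the seed in capitals.
GEMIN5 target site: ccttaatcaagAAGAGAAa

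GEMIN5 (ENSG00000082516, chromosome 5 of GRCh38 from 154887411 to 154938211) was at 12.4, 15.1, 12.7 and 16.2 CPM in Ctrl 1 to 4 and 5.92, 5.16, 4.92 and 5.33 CPM in siRNAG5 1 to 4, where CPM is the count scaled to a common library size after normalization. Each siRNAG5 value was lower than each Ctrl value, with a log2 FC of -1.40 (SE 0.12, adjusted p = 3.11e-10) in edgeR's quasi-likelihood test, the test behind every adjusted p below. In such bulk samples, fewer expressing cells and less RNA per cell cannot be told apart. Reads outside the cleavage site still count, so the value measures remaining RNA and not intact mRNA.

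Reads counted on genes, the depth behind all values, numbered 13347866 to 18053614 in Ctrl and 18411789 to 24511299 in siRNAG5, so that every siRNAG5 library was deeper than every Ctrl library. The first principal component held 49.5% of the variance of 14134 genes and separated the groups, with Ctrl at -34.8 to -19.07 and siRNAG5 at 19.29 to 32.05. The biological coefficient of variation was 0.0806, and the median SD of log2 CPM between replicates was 0.16 in both groups. The HEK293 marker list, of which all 9 genes were detected, summed to 929 to 1112 CPM in Ctrl and 1087 to 1342 CPM in siRNAG5 (exact two-sided permutation p = 0.114). The sum hides single genes, whose log2 FC ran from -0.30 for PAX2 to 1.74 for NES. By the limits given below, 2 of the 9 were called higher and 0 lower. The 25 liver genes summed to 1.13 to 2.55 CPM in Ctrl 1 and 2 and in siRNAG5 to 1.01 to 1.48 CPM, but to 130.9 and 114.5 CPM in Ctrl 3 and 4. The long noncoding RNAs MALAT1, NEAT1, KCNQ1OT1 and MEG3, known as nuclear, summed to 4.11 and 6.34 CPM in Ctrl 2 and 1, 15.75 and 18.56 CPM in Ctrl 3 and 4, and 12.05 to 13.35 CPM in siRNAG5. Red blood cell, immune lineage and brain gene lists summed to at most 0.965, 3.87 and 2.94 CPM in any library, and HBB, PTPRC and CD3E held 7, 1 and 1 reads over all 8 libraries. The part of these differences in the results was not tested, and the counts of called genes are given below without Ctrl 3 and 4 and without Ctrl 1 and 2.

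**Figure D1:**
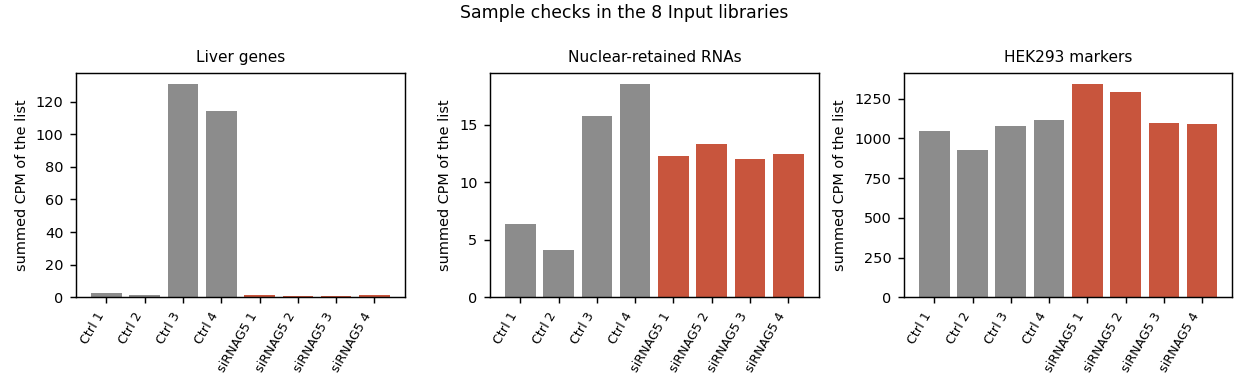
Summed CPM of the liver, nuclear RNA and HEK293 marker lists (vertical axes) in each of the 8 Input libraries (horizontal axes, Ctrl in grey, siRNAG5 in red). Liver gene reads stand at 130.9 and 114.5 CPM in Ctrl 3 and 4 and below 3 CPM elsewhere, whereas the HEK293 markers range from 929 to 1342 CPM over all libraries.

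A gene was called lower or higher at an adjusted p under 0.05 and a log2 FC under -0.5 or over 0.5. Of 14134 genes tested, 851 were called lower (6.02%) and 1479 higher (10.5%), and the median log2 FC of all genes was 0.04, with quartiles of -0.21 and 0.30. The split was 644 lower and 1790 higher with upper-quartile in place of TMM factors. Without Ctrl 3 and 4 it was 977 and 1468, and without Ctrl 1 and 2 it was 727 and 1015, in fits chosen after seeing the data. The groups did not overlap in 18.1% of genes with siRNAG5 below Ctrl and in 16.1% with siRNAG5 above. Decreases were smaller than increases, with 56 called genes beyond a log2 FC of -1 and 394 beyond 1. Ctrl 2 was the highest Ctrl library in 592 of the 851 genes called lower (69.6%) and the lowest in 643 of the 1479 called higher (43.5%).

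The genes were then grouped into 58 functional classes, and each class is described by its counts and its median beside those of all genes. In the plot of gene classes, the largest negative medians belonged to SR splicing factors, mitochondrial ribosomal proteins and Sm core proteins, and the largest positive ones to integrated stress response, MHC class II and collagen, laminin and integrin genes. By edgeR, 26 classes had 0 members called higher and 14 had 0 called lower. At an unadjusted p under 0.05, 1 nonsense-mediated decay factor was then called higher and 1 immediate early gene lower, and by DESeq2 1 cytosolic aminoacyl-tRNA synthetase was called lower. Leaving out single libraries added 1 or 2 such calls in some of these classes.

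**Figure D2:**
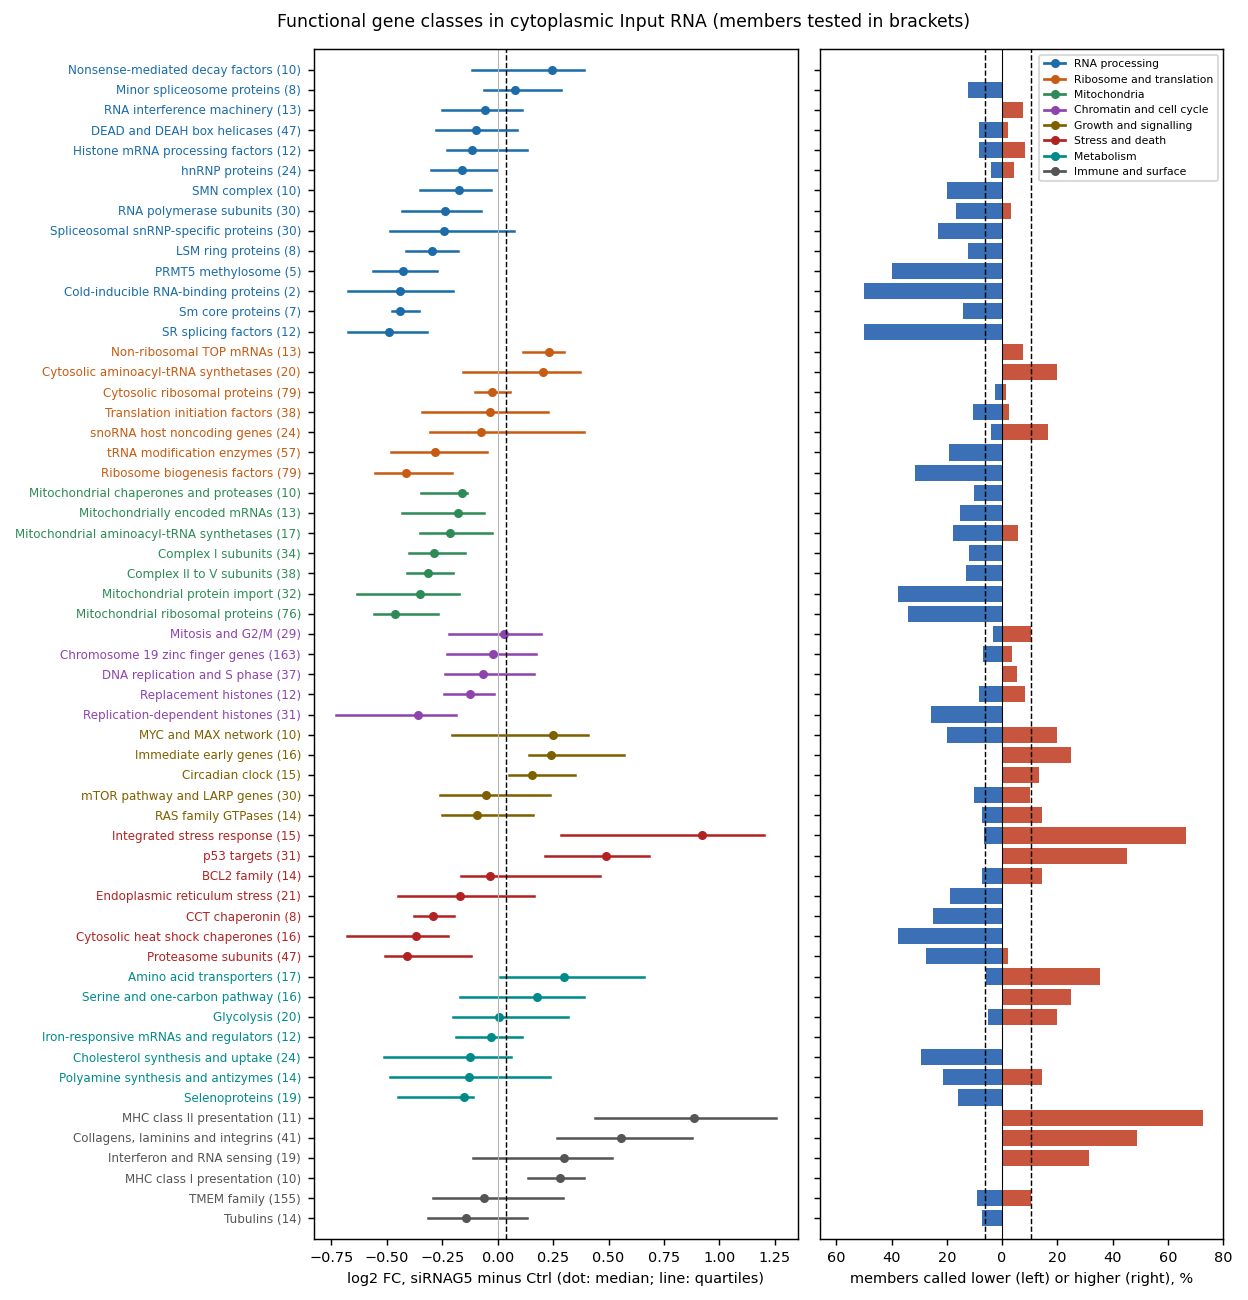
Left, median log2 FC (dot) and quartiles (line) of each functional class, coloured by theme, with the number of members tested in brackets and the median of all genes (0.04) as a dashed line. Right, percentage of tested members called lower (blue, left of zero) or higher (red, right of zero), with the shares of all genes (6.02% and 10.5%) as dashed lines. Blue bars past the dashed line gather in the RNA processing, mitochondrial and proteostasis classes, and red bars reach 72.7% for MHC class II presentation and 66.7% for the integrated stress response. Genes low in Ctrl could be tested through siRNAG5 alone, so shares called higher may rest partly on a filter on low counts.

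Genes of snRNP assembly were lower in part. Of the 10 SMN complex genes, GEMIN5 and GEMIN6 were called lower and the median log2 FC was -0.17. GEMIN6, a small subunit that binds Sm proteins within the complex, was at 104, 120.4, 106 and 98.8 CPM in Ctrl 1 to 4 and 47.8, 56.9, 58.3 and 59.7 CPM in siRNAG5 1 to 4, a log2 FC of -0.95 (SE 0.08, adjusted p = 1.57e-10). The groups did not overlap. GEMIN7, the partner of GEMIN6, had a log2 FC of -0.40 without overlap but below the fold limit. Among the 5 genes of the PRMT5 methylosome, which methylates Sm proteins before they reach the SMN complex, WDR77 and COPRS were called lower. WDR77 (ENSG00000116455, chromosome 1 from 111439890.0 to 111449256.0), the adaptor of PRMT5, was at 129, 164, 133 and 128 CPM in Ctrl 1 to 4 and 58.4, 61.03, 68.02 and 70.6 CPM in siRNAG5 1 to 4. The groups lay far apart, with Ctrl 2 the highest library. Its log2 FC was -1.10 (SE 0.08, adjusted p = 2.07e-11), against -0.27 for PRMT5 itself and -0.56 for COPRS, which directs PRMT5 to histones. All 7 Sm core proteins tested lay below Ctrl in every siRNAG5 library, with a median of -0.44 and a range from -0.55 for SNRPG to -0.28 for SNRPD2. Only SNRPG passed the fold limit, and 2 members did without Ctrl 3 or without Ctrl 4 and 3 without siRNAG5 3. The value of SNRPG was -0.48 without Ctrl 1 and 2. Of the 8 LSM ring proteins, which bind U6 snRNA or decaying mRNAs, LSM3 was called lower at -0.67 (SE 0.07, adjusted p = 5.72e-09) and the median was -0.30.

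Spliceosomal proteins fell unevenly. Of 30 proteins specific to single snRNPs, 7 were called lower (23.3%, against 6.02% of all genes) and 0 higher. Wholly below Ctrl lay 17, where all genes had 18.1%. The 4 wholly above it were a smaller share than the 16.1% of all genes. The U2 snRNP subunits SF3B4, SF3B5 and SNRPB2 had log2 FC of -0.63, -0.62 and -0.61, and SNRNP40 of the U5 snRNP had -0.60. SNRNP70 and SNRPA, proteins of the U1 snRNP, moved apart at -0.26 and 0.25, both below the fold limit. The class count was 4 with upper-quartile factors and 4 without Ctrl 1 and 2. Among 8 minor spliceosome proteins, SNRNP25 was called lower at -0.79 (SE 0.07, adjusted p = 3.75e-10), and the class median was 0.08.

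SR proteins, which bind exonic enhancers and help choose splice sites, were the class with the lowest median, at -0.49. Of 12 tested, 6 were called lower (50%) and 10 lay wholly below Ctrl. SRSF6 (ENSG00000124193, chromosome 20 from 43457893.0 to 43466046.0) was at 62.6, 76.7, 63.4 and 61.5 CPM in Ctrl 1 to 4 and 26.96, 29.9, 34.9 and 34.8 CPM in siRNAG5 1 to 4. Every Ctrl value exceeded every siRNAG5 value, with Ctrl 2 the highest, and the log2 FC was -1.06 (SE 0.09, adjusted p = 1.96e-10). SRSF2 was at 299.6, 353, 282 and 293 CPM in Ctrl 1 to 4 and 169.7, 169, 179 and 179 CPM in siRNAG5 1 to 4, a log2 FC of -0.82 (SE 0.07, adjusted p = 2.24e-10). SRSF1, SRSF7, SRSF9 and SRSF10 were at -0.71, -0.66, -0.60 and -0.59. SRSF1 and SRSF10 were at -0.49 and -0.48 without Ctrl 1 and 2, and then not called.

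Of 24 hnRNP proteins, which coat nascent transcripts, 12 lay wholly below Ctrl and 3 wholly above, where all genes had 18.1% and 16.1%. The median log2 FC was -0.16. The share called was 4.17% in each direction, against 6.02% lower and 10.5% higher of all genes. HNRNPDL was called lower at -0.64 (SE 0.07, adjusted p = 5.25e-08) and HNRNPUL2 higher at 0.57 (SE 0.15, adjusted p = 0.00425), while HNRNPA1 and HNRNPA2B1 stood at 0.24 and -0.27. The lower count was 2 without any one of Ctrl 1, Ctrl 3, Ctrl 4 or siRNAG5 3. Among 47 DEAD and DEAH box helicases, 4 were called lower (8.51%, against 6.02% of all genes). These were DDX39A of mRNA export at -0.86, and DDX56, DHX37 and DDX49 of ribosome assembly at -0.79, -0.57 and -0.57, the value of DHX37 being -0.48 without Ctrl 2. EIF4A2, a translation initiation helicase, was called higher at 0.63 (SE 0.07, adjusted p = 3.76e-08). The cold-inducible protein RBM3 was at 301, 330.2, 278 and 297 CPM in Ctrl 1 to 4 and 161, 159, 172 and 148 CPM in siRNAG5 1 to 4, a log2 FC of -0.91 (SE 0.07, adjusted p = 2.12e-11) without overlap.

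Other classes of RNA metabolism stayed near the background. None of the 10 nonsense-mediated decay factors was called, and their median was 0.25, with UPF1, the central helicase, at 0.40 and UPF2 at -0.17. Without Ctrl 4, 1 member was called in each direction. Of 13 RNA interference genes, AGO4 was called higher at 0.63, while AGO2, the slicing Argonaute on which siRNAs act, was at -0.34 and not called. LSM10 of the U7 snRNP was the 1 histone mRNA processing factor called lower, at -0.55, and CASP8AP2 the 1 called higher, at 0.60. LSM10 was at -0.50 without Ctrl 2, and CASP8AP2 lost its call without Ctrl 3 or without siRNAG5 4, at 0.53 and 0.45.

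Of 30 RNA polymerase subunits, 5 were called lower (16.7%) and 1 higher (3.33%), against 6.02% and 10.5% of all genes. In 14 subunits siRNAG5 lay wholly below Ctrl and in 6 wholly above, where all genes had 18.1% and 16.1%. POLR2L, shared by all 3 polymerases, was at 449, 534, 489.6 and 449 CPM in Ctrl 1 to 4 and 248, 238, 279 and 236 CPM in siRNAG5 1 to 4, a log2 FC of -0.94 (SE 0.07, adjusted p = 2.37e-11). The groups did not overlap. POLR1G of polymerase I was at -0.97, POLR3K at -0.61 and POLR2E, also shared, at -0.56. The largest subunit of polymerase II, POLR2A, moved the other way, at 19.96, 20.5, 22.01 and 22.7 CPM in Ctrl 1 to 4 and 32.2, 31.2, 27.5 and 32.6 CPM in siRNAG5 1 to 4 and a log2 FC of 0.54 (SE 0.09, adjusted p = 1.02e-05), which was 0.47 without Ctrl 1 and 2.

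Ribosome biogenesis factors, the nucleolar proteins that modify, cut and fold ribosomal RNA, were lower in many cases, which few of the ribosomal proteins they assemble were. Of 79 factors, 25 were called lower (31.6%), 53 lay wholly below Ctrl and 1 wholly above, and the median log2 FC was -0.41. NOP56 (ENSG00000101361, chromosome 20 from 2652593.0 to 2658393.0), a core protein of box C/D snoRNPs, was at 528, 584, 552 and 506 CPM in Ctrl 1 to 4 and 256, 275, 287 and 286 CPM in siRNAG5 1 to 4. Its log2 FC was -0.98 (SE 0.06, adjusted p = 3.05e-12), whereas its partner NOP58 had -0.33 and was not called. NOP16, which joins the large subunit precursor, was at 188, 248, 218 and 189 CPM in Ctrl 1 to 4 and 77.7, 91.9, 92.9 and 94.03 CPM in siRNAG5 1 to 4, the largest decrease of the class at -1.24 (SE 0.08, adjusted p = 3.05e-12). In both genes the lowest Ctrl library lay above the highest siRNAG5 library. RRP9, of the U3 snoRNP, and RRS1, which recruits 5S RNA, had -0.92 and -0.89.

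Of 79 cytosolic ribosomal proteins, 2 were called lower and 1 higher, fewer than the background shares of 6.02% and 10.5%. The median log2 FC was -0.03, and 0.02 with upper-quartile factors, with quartiles of -0.10 and 0.06. RPL3, a core protein of the large subunit, was at 5934, 5738, 6015 and 5848 CPM in Ctrl 1 to 4 and 7369, 7309, 6855 and 6936 CPM in siRNAG5 1 to 4, without overlap but below the fold limit at 0.28. The 3 called members were at the edge. RPS26 was at -0.50, and at -0.49, -0.48, -0.50 and -0.48 without Ctrl 2, Ctrl 3, siRNAG5 1 or siRNAG5 4. RPL17 was at -0.56, and at -0.47 without Ctrl 2. RPS10 was at 0.59 on 70 reads in Ctrl and 160 in siRNAG5, and was not called without any one of Ctrl 1, Ctrl 2, Ctrl 4, siRNAG5 1 or siRNAG5 3, at 0.60, 0.55, 0.53, 0.49 and 0.57. RPL17 and RPS10 overlap the readthrough genes RPL17-C18orf32 and RPS10-NUDT3 on the same strand, and reads shared by 2 genes were not counted.

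Other mRNAs with a 5' terminal oligopyrimidine (TOP) tract, the motif that ties translation to mTOR, had a median of 0.23, and 8 of 13 lay wholly above Ctrl. EEF2 (ENSG00000167658, chromosome 19 from 3976056.0 to 3985463.0), the elongation factor that moves the ribosome along the mRNA, was at 1464, 1353, 1502 and 1653 CPM in Ctrl 1 to 4 and 3097, 2586, 2397 and 2309.9 CPM in siRNAG5 1 to 4. It was the only member of this list called, at 0.80 (SE 0.07, adjusted p = 1.77e-09), with siRNAG5 1 the highest library. EEF1A1, which delivers aminoacyl-tRNAs, was at 0.30, also without overlap. EEF1G held 0 reads in all libraries and overlaps another gene.

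Initiation factors divided. Of 38 tested, 4 were called lower (10.5%) and 1 higher (2.63%), against 6.02% and 10.5% of all genes. Wholly below Ctrl lay 16 and wholly above 11, and the median was -0.03, or 0.02 with upper-quartile factors. The cap-binding protein EIF4E was at 53.1, 53.6, 52.3 and 46.2 CPM in Ctrl 1 to 4 and 27.3, 35.5, 35.3 and 39.6 CPM in siRNAG5 1 to 4, a log2 FC of -0.57 (SE 0.09, adjusted p = 7e-06), and at -0.48 without siRNAG5 1. EIF2B1, a subunit of the guanine nucleotide exchange factor of the initiation factor eIF2, EIF1AD and EIF5 were at -0.65, -0.60 and -0.52. EIF5 lost its call without Ctrl 1 or siRNAG5 1, at -0.49 and -0.48, and the class count of lower genes was 2 without siRNAG5 1. The higher count was 2 without Ctrl 4 or without siRNAG5 1.

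Enzymes that act on tRNA fell into 3 lists. Of 57 tRNA modification enzymes, 11 were called lower (19.3%), 17 without Ctrl 1, with a median of -0.28. METTL1, the tRNA 7-methylguanosine methyltransferase, was at 20.9, 24.7, 20.3 and 19.9 CPM in Ctrl 1 to 4 and 9.57, 11.01, 10.2 and 9.83 CPM in siRNAG5 1 to 4, a log2 FC of -1.08 (SE 0.10, adjusted p = 1.3e-09). The pseudouridine synthase PUS1, TRMT61A and the mitochondrial thiouridylase TRMU were at -0.76, -0.76 and -0.67. Of 20 cytosolic aminoacyl-tRNA synthetases, which charge tRNAs with amino acids, 11 lay wholly above Ctrl and 5 wholly below, 4 were called higher, and the median was 0.20. AARS1 was at 72.01, 72.8, 80.7 and 88.03 CPM in Ctrl 1 to 4 and 139, 120.2, 122 and 119 CPM in siRNAG5 1 to 4, a log2 FC of 0.68 (SE 0.07, adjusted p = 2.28e-08), and CARS1, QARS1 and MARS1 were at 0.68, 0.58 and 0.51. MARS1 was at 0.46 without Ctrl 1 and 0.44 without siRNAG5 1. The mitochondrial synthetases, encoded by other genes, had a median of -0.22. Of 17, CARS2, EARS2 and MARS2 were called lower at -0.63, -0.61 and -0.53, and VARS2 higher at 0.53. MARS2 lost its call without Ctrl 4 or siRNAG5 3, at -0.44 and -0.45, and VARS2 without Ctrl 1 or siRNAG5 1, at 0.49 and 0.46.

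Noncoding genes whose introns give rise to snoRNAs were called higher in 4 of 24 (16.7%) and lower in 1 (4.17%), against 10.5% and 6.02% of all genes. GAS5 (ENSG00000234741, chromosome 1 from 173858559.0 to 173868882.0) was at 436, 326, 428 and 401 CPM in Ctrl 1 to 4 and 862, 915, 760.5 and 814 CPM in siRNAG5 1 to 4, a log2 FC of 1.07 (SE 0.08, adjusted p = 1.39e-11). SNHG1 was at 86.6, 72.1, 81.1 and 82.98 CPM in Ctrl 1 to 4 and 144, 148, 132 and 145 CPM in siRNAG5 1 to 4, a log2 FC of 0.82 (SE 0.07, adjusted p = 2.6e-10). SNHG32 and EPB41L4A-AS1 were at 0.94 and 0.84, and SNHG9, the 1 called lower, was at -0.66. In these 5 genes the groups did not overlap. Over the class, 14 members had a negative and 10 a positive log2 FC, 6 lay wholly below Ctrl and 7 wholly above, and the median was -0.07.

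Nuclear genes of the mitochondrial ribosome were lower in large part. Of 76 tested, 26 were called lower (34.2%), 63 lay wholly below Ctrl and 2 wholly above, and the median log2 FC was -0.46. MRPS12 (ENSG00000128626, chromosome 19 from 38930944.0 to 38933168.0) was at 192, 246, 206 and 208 CPM in Ctrl 1 to 4 and 105, 106, 114 and 109.6 CPM in siRNAG5 1 to 4, a log2 FC of -0.97 (SE 0.07, adjusted p = 2.12e-11). MRPL20 was at 246, 291, 249.8 and 242 CPM in Ctrl 1 to 4 and 129, 136, 159 and 138 CPM in siRNAG5 1 to 4, a log2 FC of -0.87 (SE 0.07, adjusted p = 1.96e-10). MRPL35 and MRPL23 were both at -0.83, and the highest member was MRPL10 at 0.26. Cytosolic ribosomal proteins, of shorter median spliced length (785 against 1242 bases) and the same median of 4 introns, had a median of -0.03.

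The import machinery, which carries proteins made in the cytosol into mitochondria, had 12 of 32 genes called lower (37.5%) and a median of -0.35. TIMM10, a chaperone of the intermembrane space, was at 146, 174, 152 and 142 CPM in Ctrl 1 to 4 and 79.6, 79.5, 87.8 and 78.7 CPM in siRNAG5 1 to 4, a log2 FC of -0.91 (SE 0.07, adjusted p = 5.94e-11). TOMM22, a receptor of the outer membrane, was at 364, 413, 351 and 334 CPM in Ctrl 1 to 4 and 206, 219, 216 and 205 CPM in siRNAG5 1 to 4, a log2 FC of -0.79 (SE 0.07, adjusted p = 2.45e-10). TIMM10B, TIMM8B and the inner membrane channel TIMM23 were at -0.84, -0.78 and -0.64, whereas the receptor TOMM20 was at 0.19 and not called.

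Respiratory chain subunits were lower by less. Of 34 complex I subunits 4 were called lower and 21 lay wholly below Ctrl, with a median of -0.28, and of 38 subunits of complexes II to V the numbers were 5, 29 and -0.31. NDUFB10 was at 778, 835, 818 and 743 CPM in Ctrl 1 to 4 and 489, 489.5, 512 and 469 CPM in siRNAG5 1 to 4, a log2 FC of -0.70 (SE 0.06, adjusted p = 3.75e-10), and NDUFB2, NDUFAB1 and NDUFA8 were at -0.59, -0.59 and -0.51. ATP5MC1, a subunit of the rotor ring of ATP synthase, was at 498, 588, 533 and 500.4 CPM in Ctrl 1 to 4 and 295, 298, 325 and 302 CPM in siRNAG5 1 to 4, a log2 FC of -0.80 (SE 0.06, adjusted p = 1.49e-10). ATP5MC3, ATP5ME, UQCRFS1 and UQCR10 were at -0.60, -0.59, -0.56 and -0.51. NDUFS1, SDHA and ATP5F1A were at 0.12, 0.09 and -0.06 with overlapping groups, SDHA being the highest of the 38. Of the calls, NDUFA8 was at -0.48, -0.50 and -0.49 without Ctrl 2, Ctrl 3 or siRNAG5 2, and UQCR10 at -0.47, -0.49 and -0.50 without Ctrl 2, Ctrl 3 or siRNAG5 4.

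The 13 mRNAs encoded by mitochondrial DNA had a median of -0.18. MT-ND6, the 1 mRNA of the light strand, was called lower at -0.61 (SE 0.10, adjusted p = 9.1e-06), and MT-ATP8 at -0.54. MT-ATP8 was at -0.50 without Ctrl 1 and -0.48 without siRNAG5 3. The class count was 4 without Ctrl 4 and 4 without siRNAG5 1. Among 10 mitochondrial chaperones and proteases, HSPE1 was called lower, at 157, 156, 169 and 139 CPM in Ctrl 1 to 4 and 83.6, 90.8, 102 and 88.4 CPM in siRNAG5 1 to 4 and a log2 FC of -0.77 (SE 0.07, adjusted p = 1.54e-09), and its partner HSPD1 was at -0.40.

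**Figure D3:**
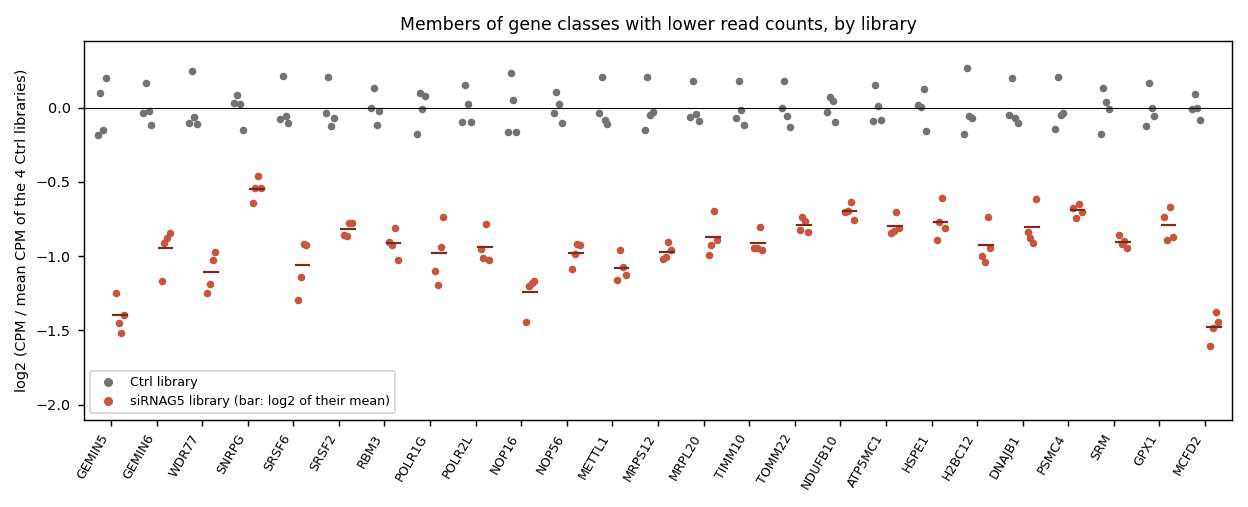
Log2 ratio of each library's CPM to the mean of the 4 Ctrl libraries (vertical axis) for 25 genes of the classes with lower read counts (horizontal axis), with Ctrl in grey, siRNAG5 in red and a bar at the log2 of the siRNAG5 mean. All 25 were taken from called genes whose groups do not overlap, so the red points lie below the grey points by that choice. GEMIN5 and MCFD2 lie lowest.

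Replication-dependent histones, whose mRNAs normally end without a poly(A) tail and so are poorly sampled here, were lower in 8 of 31 tested, with a median of -0.36. H2BC12 was the best covered of these, at 61.9, 84.1, 67.6 and 66.9 CPM in Ctrl 1 to 4 and 35.2, 34.1, 42.03 and 36.5 CPM in siRNAG5 1 to 4, a log2 FC of -0.93 (SE 0.09, adjusted p = 1.72e-09). H3C12, H2BC13 and H2BC18 were called at -2.47, -1.18 and -0.89, but each stayed below 2.2 CPM in every library. H2BC13 was at -1.04 without Ctrl 2 and H2BC18 at -0.72 without Ctrl 1, both then not called. These genes are near-identical copies, and the counting could leave out reads that they share. Among 12 replacement histones, 1 was called higher and H2AX was called lower at -0.51, or -0.45 without Ctrl 2 and -0.45 without siRNAG5 2.

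Cell cycle genes were close to the background. Of 37 genes of DNA replication and S phase, CDT1, which licenses origins, was called higher at 0.88 (SE 0.10, adjusted p = 2.36e-08), and POLD1 at 0.57, or 0.48 without Ctrl 1. PCNA and MCM2 were at -0.17 and 0.17, both below the fold limit. Of 29 genes of mitosis, TOP2A was at 40.3, 40.4, 35.3 and 42.6 CPM in Ctrl 1 to 4 and 68.8, 81.03, 71.4 and 82.4 CPM in siRNAG5 1 to 4, a log2 FC of 0.94 (SE 0.08, adjusted p = 2.31e-10). The kinetochore proteins CENPE and CENPF were also called higher, at 0.66 and 0.54, the latter being 0.50 without Ctrl 2 and 0.48 without siRNAG5 4. CDC20 was called lower at -0.51, or -0.46 without Ctrl 2 and -0.49 without Ctrl 3, and CCNB1 and CDK1 were at -0.34 and -0.16. Zinc finger genes of chromosome 19 were called lower in 11 and higher in 6 of 163, with a median of -0.02, or 0.03 with upper-quartile factors. The lower count was 7 without siRNAG5 4, and the higher count 3 without any one of Ctrl 2, Ctrl 3 or siRNAG5 1.

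Among growth regulators, MYC was at 73.4, 60.6, 70.5 and 78.97 CPM in Ctrl 1 to 4 and 90.1, 95.1, 84.8 and 96.2 CPM in siRNAG5 1 to 4, without overlap but below the fold limit at 0.37, and its dimerization partner MAX was called lower at -0.70 (SE 0.08, adjusted p = 1.01e-07). The antagonist MXD4 was called lower at -0.55, and MGA and MXD3 higher at 0.77 and 0.51. MGA was at 0.64 without Ctrl 2, then not called, and MXD3 lay between 0.48 and 0.49 without Ctrl 1, Ctrl 2, siRNAG5 1 or siRNAG5 3. Of 30 mTOR pathway and LARP genes, 3 were called higher (10%, against 10.5% of all genes) and 3 lower (10%, against 6.02%). Those called higher were RHEBL1, DEPTOR and RPTOR at 0.99, 0.60 and 0.54. MTOR was at 0.44 and LARP1, which binds TOP mRNAs, at 0.31. RPTOR was at 0.46 without Ctrl 1 and 0.48 without Ctrl 2. The 3 members called lower, LAMTOR4, LAMTOR2 and RRAGB of the lysosomal scaffold, stood at -0.51, -0.51 and -0.52, and all 3 missed the fold limit without Ctrl 2. Without siRNAG5 2 they missed it too, and without siRNAG5 1 or siRNAG5 4 the count was 1.

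Among 14 RAS family GTPases, HRAS was lower at 126, 157, 142 and 138 CPM in Ctrl 1 to 4 and 78.6, 80.2, 89.8 and 78.2 CPM in siRNAG5 1 to 4, a log2 FC of -0.78 (SE 0.07, adjusted p = 1.05e-09), and RRAS was higher at 10.6, 12.6, 14.9 and 13.7 CPM in Ctrl 1 to 4 and 27.5, 28.5, 23.3 and 25.03 CPM in siRNAG5 1 to 4, a log2 FC of 1.00 (SE 0.10, adjusted p = 7.29e-09). Of this family, 1 was called lower (7.14%) and 2 higher (14.3%), against 6.02% and 10.5% of all genes. The count of members called lower was 2 without Ctrl 3 and 2 without siRNAG5 2. Of 16 immediate early genes, which respond first to serum or stress, 4 were called higher (25%, against 10.5% of all genes). NR4A1 was at 5.80, 3.69, 5.34 and 6.61 CPM in Ctrl 1 to 4 and 10.8, 12.4, 9.45 and 11.1 CPM in siRNAG5 1 to 4, a log2 FC of 1.04 (SE 0.14, adjusted p = 8.4e-07). CCN2, CCN1 and ATF3 were at 1.59, 0.62 and 0.96, CCN1 being 0.46 without Ctrl 2 and ATF3 having overlapping groups. EGR1 was at 2.63, 0.417, 2.88 and 3.27 CPM in Ctrl 1 to 4 and 1.37, 1.60, 0.985 and 1.22 CPM in siRNAG5 1 to 4, where Ctrl 2 stood apart from Ctrl 1, 3 and 4. Its log2 FC of -0.81 was not called (adjusted p = 0.051), but was called without Ctrl 2, siRNAG5 1 or siRNAG5 2, at -1.20, -0.84 and -0.91. Of 15 circadian clock genes, PER1 and BHLHE40 were called higher at 0.68 and 0.64 (13.3%, against 10.5% of all genes). The groups overlapped for BHLHE40, which stood at 0.37 without Ctrl 2 and lost its call there. The count was 1 without any one of Ctrl 2, Ctrl 3, siRNAG5 2 or siRNAG5 4.

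Targets of p53, the transcription factor of DNA damage and nucleolar stress, were called higher in 14 of 31 (45.2%, against 10.5% of all genes), and 20 lay wholly above Ctrl. Their median log2 FC was 0.49. GDF15, a secreted stress cytokine that other pathways induce too, was at 1.08, 1.37, 0.984 and 1.19 CPM in Ctrl 1 to 4 and 16.7, 12.2, 14.1 and 12.7 CPM in siRNAG5 1 to 4, which gave 3.57, by far the largest value of the list. CDKN1A, the p21 inhibitor of cyclin-dependent kinases, was at 31.9, 26.1, 29.04 and 32.6 CPM in Ctrl 1 to 4 and 53.9, 42.7, 44.5 and 44.8 CPM in siRNAG5 1 to 4, a log2 FC of 0.64 (SE 0.09, adjusted p = 9.64e-07). MDM2, the ubiquitin ligase that degrades p53, was at 5.03, 5.12, 4.15 and 7.05 CPM in Ctrl 1 to 4 and 7.45, 8.62, 8.39 and 8.69 CPM in siRNAG5 1 to 4, a log2 FC of 0.64 (SE 0.14, adjusted p = 0.000469). In these 3 genes the groups did not overlap. TP53INP1, ZMAT3 and SESN2 were at 1.22, 1.16 and 1.03. Of the 31, 3 had a negative log2 FC. Among these only TIGAR lay wholly below Ctrl, at -0.43 and not called, and it was called at -0.52 without siRNAG5 4.

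BCL2 family genes were split, with a median of -0.03, or 0.02 with upper-quartile factors. BMF, a pro-apoptotic BH3-only protein, was at 1.01, 0.298, 0.422 and 0.445 CPM in Ctrl 1 to 4 and 2.06, 1.70, 1.93 and 1.76 CPM in siRNAG5 1 to 4, a log2 FC of 1.81 (SE 0.30, adjusted p = 1.87e-05). Its Ctrl values were near the floor, and it could be tested only because its siRNAG5 libraries passed the filter on low counts. BBC3, which encodes the BH3-only protein PUMA, was at 15.2, 10.8, 12.7 and 13.8 CPM in Ctrl 1 to 4 and 28.8, 24.2, 22.3 and 24.7 CPM in siRNAG5 1 to 4, a log2 FC of 0.93 (SE 0.10, adjusted p = 4.08e-08). BID was called lower at -0.61 (SE 0.07, adjusted p = 4.33e-08), and MCL1 was at -0.16. The count of members called higher was 2 of 14 (14.3%, against 10.5% of all genes), and 4 without Ctrl 1.

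Genes of the integrated stress response, the program that the transcription factor ATF4 drives when translation initiation is restrained, were called higher in 10 of 15 tested (66.7%), 11 lying wholly above Ctrl. Their median log2 FC was 0.92. ATF4 mRNA itself, controlled mainly by translation, was at 1182, 1048, 1149.6 and 1162 CPM in Ctrl 1 to 4 and 1465, 1329, 1427 and 1279 CPM in siRNAG5 1 to 4, below the fold limit at 0.28. NUPR1 (ENSG00000176046, chromosome 16 from 28532708.0 to 28539008.0), a chromatin cofactor of stressed cells, was at 5.26, 4.58, 4.71 and 5.05 CPM in Ctrl 1 to 4 and 33.5, 18.04, 25.1 and 16.4 CPM in siRNAG5 1 to 4, a log2 FC of 2.25 (SE 0.17, adjusted p = 4.22e-11). CHAC1, which degrades glutathione, was at 7.04, 5.83, 7.81 and 8.09 CPM in Ctrl 1 to 4 and 32.99, 21.1, 26.8 and 22.6 CPM in siRNAG5 1 to 4, a log2 FC of 1.85 (SE 0.13, adjusted p = 1.29e-11). DDIT3, which encodes the factor CHOP, was at 13.9, 7.14, 14.1 and 14.5 CPM in Ctrl 1 to 4 and 36.7, 33.9, 27.1 and 29.99 CPM in siRNAG5 1 to 4, a log2 FC of 1.37 (SE 0.14, adjusted p = 5.56e-09). In the latter, Ctrl 2 was well below the other Ctrl libraries. VLDLR, SLC7A11, DDIT4 and SESN2 were at 1.60, 0.92, 0.99 and 1.03. Not all members rose, since ATF5 was called lower, at 4.18, 5.42, 4.78 and 4.30 CPM in Ctrl 1 to 4 and 2.64, 2.02, 2.25 and 2.31 CPM in siRNAG5 1 to 4 and a log2 FC of -1.02 (SE 0.16, adjusted p = 9.45e-06), and TRIB3 was at 0.30 with overlap. ASNS held 11 and 42 reads in the groups, overlaps another gene and was not tested.

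Classes that ATF4 is known to feed into were higher in part. Of 16 genes of the serine and folate pathway, SHMT2, MTHFD2, MTR and ALDH1L2 were called higher (25%, against 10.5% of all genes). In this class 4 genes lay wholly above Ctrl and 4 wholly below, and the median was 0.18. SHMT2, the mitochondrial serine hydroxymethyltransferase, was at 190.4, 195, 210.3 and 224 CPM in Ctrl 1 to 4 and 440.5, 331, 336 and 315 CPM in siRNAG5 1 to 4, a log2 FC of 0.80 (SE 0.08, adjusted p = 7.29e-09). MTHFD2 was at 165, 145, 152 and 146 CPM in Ctrl 1 to 4 and 250.1, 242, 255 and 239 CPM in siRNAG5 1 to 4, a log2 FC of 0.70 (SE 0.06, adjusted p = 8.23e-10). Both groups were apart in these genes, whereas PHGDH, the first enzyme of serine synthesis, was at 0.35 with overlap. ALDH1L2 was at 0.51, and at 0.45, 0.46 and 0.49 without Ctrl 3, Ctrl 4 or siRNAG5 1. Of 17 amino acid transporters, 6 were called higher (35.3%) and 1, SLC7A6, lower at -0.65 (5.88%), against 10.5% and 6.02% of all genes. The transporters had a median of 0.30. The arginine and lysine transporter SLC7A3 was at 7.66, 8.09, 7.17 and 7.27 CPM in Ctrl 1 to 4 and 21.6, 18.8, 18.5 and 14.4 CPM in siRNAG5 1 to 4, a log2 FC of 1.27 (SE 0.12, adjusted p = 1.53e-09). The glutamine transporter SLC1A5 was at 53.1, 54.9, 57.1 and 68.3 CPM in Ctrl 1 to 4 and 120.0, 83.3, 92.9 and 83.8 CPM in siRNAG5 1 to 4, a log2 FC of 0.70 (SE 0.09, adjusted p = 7.56e-07). SLC6A9 and the cystine transporter SLC7A11 were at 1.08 and 0.92, while SLC7A5 and SLC3A2, which form the leucine transporter, were at 0.30 and 0.12 with overlapping groups.

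Protein folding and degradation genes were lower rather than higher. Of 21 genes of endoplasmic reticulum stress, 4 were called lower, MANF, CRELD2 and SDF2L1 at -0.68, -0.58 and -0.56, and DNAJC3 at -0.56, which was -0.49 without Ctrl 1. HSPA5 and XBP1, central to that response, were at 0.23 and 0.27. Of 16 cytosolic heat shock chaperones, 6 were called lower (37.5%) and 12 lay wholly below Ctrl, with a median of -0.37. DNAJB1 was at 75.1, 89.5, 74.3 and 72.3 CPM in Ctrl 1 to 4 and 43.6, 42.3, 41.4 and 50.7 CPM in siRNAG5 1 to 4, a log2 FC of -0.81 (SE 0.08, adjusted p = 4.55e-09). HSPA8, AHSA1 and STIP1 were at -0.64, -0.72 and -0.69, and HSPA1B at -0.84, a near-identical copy of HSPA1A, so that reads of either can be lost. HSP90AB1 went the other way at 0.24. In the CCT chaperonin, which folds tubulin and actin, 7 of 8 subunits lay wholly below Ctrl, and TCP1 and CCT6A were called at -0.57 and -0.54. CCT6A was at -0.49 without Ctrl 2 and -0.48 without siRNAG5 1.

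Of 47 proteasome genes, 13 were called lower (27.7%) and 31 lay wholly below Ctrl, with a median of -0.41. The count was 6 without Ctrl 2 and 7 with upper-quartile factors, since many members lay near the fold limit. PSMC4, an ATPase of the base, was at 230.0, 294, 246 and 248 CPM in Ctrl 1 to 4 and 159, 152, 162 and 156 CPM in siRNAG5 1 to 4, a log2 FC of -0.69 (SE 0.07, adjusted p = 4.82e-09). The receptor ADRM1, the activator PSME3 and the assembly factor PSMG1 were at -0.75, -0.66 and -0.65. PSMB9, the interferon-inducible subunit of the immunoproteasome encoded in the MHC region, was the 1 member called higher, at 2.48, 2.44, 2.32 and 2.00 CPM in Ctrl 1 to 4 and 5.87, 4.47, 5.08 and 4.24 CPM in siRNAG5 1 to 4 and a log2 FC of 1.08 (SE 0.17, adjusted p = 5.98e-06).

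Metabolic classes were mixed. Of 14 polyamine genes, spermidine synthase SRM was at 513, 635, 593 and 575 CPM in Ctrl 1 to 4 and 320.2, 307, 311 and 301 CPM in siRNAG5 1 to 4, a log2 FC of -0.90 (SE 0.06, adjusted p = 1.8e-11). EIF5A, the only protein that carries hypusine, and DOHH, which makes that residue, were called lower at -0.67 and -0.64, and ornithine decarboxylase ODC1 was at -0.47. The catabolic enzyme SAT1 and the antizyme inhibitor AZIN2 were called higher at 0.67 and 0.60, SAT1 being 0.44 without siRNAG5 2 and AZIN2 0.48 without Ctrl 2. The count of members called lower was 3, and 5 without siRNAG5 3. Of 20 glycolysis genes, the glucose transporter SLC2A3 was called higher at 1.72 (SE 0.24, adjusted p = 1.57e-06), along with HK2, ENO2 and ALDOC at 0.65, 0.64 and 0.61. HK2 was at 0.46 without siRNAG5 2 and ALDOC at 0.48 without Ctrl 2. TPI1 was called lower at -0.56, and GAPDH and PKM were at -0.06 and -0.21 with overlapping groups.

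Of 24 cholesterol genes, 7 were called lower. The synthesis enzymes NSDHL and ACAT2 were at -0.79 and -0.74. The count was 5 to 7 with 1 library left out and 4 without Ctrl 3 and 4. Any part of the liver reads of Ctrl 3 and 4 in this was not tested. Among 19 selenoproteins, GPX1 was at 465, 567, 505 and 487 CPM in Ctrl 1 to 4 and 303, 272, 319 and 277 CPM in siRNAG5 1 to 4, a log2 FC of -0.79 (SE 0.07, adjusted p = 4.17e-10), and MSRB1 and SELENOS were called lower at -0.69 and -0.52. SELENOS was at -0.45 without Ctrl 2 and -0.50 without siRNAG5 1. No iron-responsive gene of 12 was called, with ferritin FTH1 at -0.31.

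Several classes of cell surface and matrix genes were higher. Of 18 MHC class II genes, 11 could be tested, and 8 were called higher (72.7%), with a median of 0.89. Since low genes could be tested through siRNAG5 alone, these values may rest partly on the filter on low counts. HLA-DMA, which loads peptides, was at 2.17, 1.61, 2.67 and 1.63 CPM in Ctrl 1 to 4 and 5.82, 5.91, 5.67 and 5.29 CPM in siRNAG5 1 to 4, a log2 FC of 1.49 (SE 0.17, adjusted p = 4.61e-08). HLA-DRB1 was at 5.49, 5.65, 6.12 and 5.27 CPM in Ctrl 1 to 4 and 13.6, 11.9, 12.9 and 12.01 CPM in siRNAG5 1 to 4, a log2 FC of 1.16 (SE 0.11, adjusted p = 4.22e-09). The levels stayed low, and HLA-DRA, CD74 and the activator CIITA, which cells that present antigen express strongly, were too low to test, HLA-DRA lying between 0.119 and 0.445 CPM in all libraries. Reads of HLA genes can be split among similar copies. No class I gene of 10 was called, B2M, the shared light chain, being at -0.09, and 1 was called higher without Ctrl 3 or without siRNAG5 2. Of 19 interferon and RNA sensing genes, 6 were called higher, 3 without Ctrl 2. IFITM2, which blocks virus entry, was at 22.1, 22.1, 20.7 and 19.3 CPM in Ctrl 1 to 4 and 36.1, 36.2, 34.3 and 34.6 CPM in siRNAG5 1 to 4, a log2 FC of 0.74 (SE 0.08, adjusted p = 2.36e-08), and IFITM3 and IFITM1, similar copies, were at 0.77 and 0.62. ISG15, a usual marker of an interferon response, was at -0.14 with overlapping groups.

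Collagen, laminin and integrin genes were called higher in 20 of 41 tested (48.8%), of 77 in the files, with a median of 0.56. Genes low in Ctrl could be tested through siRNAG5 alone, so this share and median may rest partly on the filter on low counts. LAMB2 was at 4.64, 5.00, 7.24 and 5.34 CPM in Ctrl 1 to 4 and 17.7, 13.7, 14.4 and 13.6 CPM in siRNAG5 1 to 4, a log2 FC of 1.42 (SE 0.13, adjusted p = 1.43e-09). LAMA1 was at 5.57, 4.82, 3.87 and 3.93 CPM in Ctrl 1 to 4 and 10.9, 11.2, 9.49 and 9.62 CPM in siRNAG5 1 to 4, a log2 FC of 1.18 (SE 0.13, adjusted p = 4.02e-08). Both are laminin chains of the basement membrane, and neither showed overlap. COL13A1 and COL23A1 were at 1.05 and 1.80, the latter below 2 CPM in every library. These genes are long, with a median of 33 introns, and none lay in the top quintile of abundance. The TMEM family, a set of membrane proteins joined by name and not by function, was called lower in 14 and higher in 16 of 155, close to the shares of all genes. It was led by TMEM208 at -0.79 and TMEM132E at 1.69, and without Ctrl 3 and 4 the higher count was 25, without Ctrl 1 and 2 it was 10. Of 14 tubulins, TUBB4B was called lower at -0.52, or -0.46 without Ctrl 2, and TUBB was at 0.07. Of these tubulins, 7 lay wholly below Ctrl and 1 wholly above, with a median of -0.14.

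**Figure D4:**
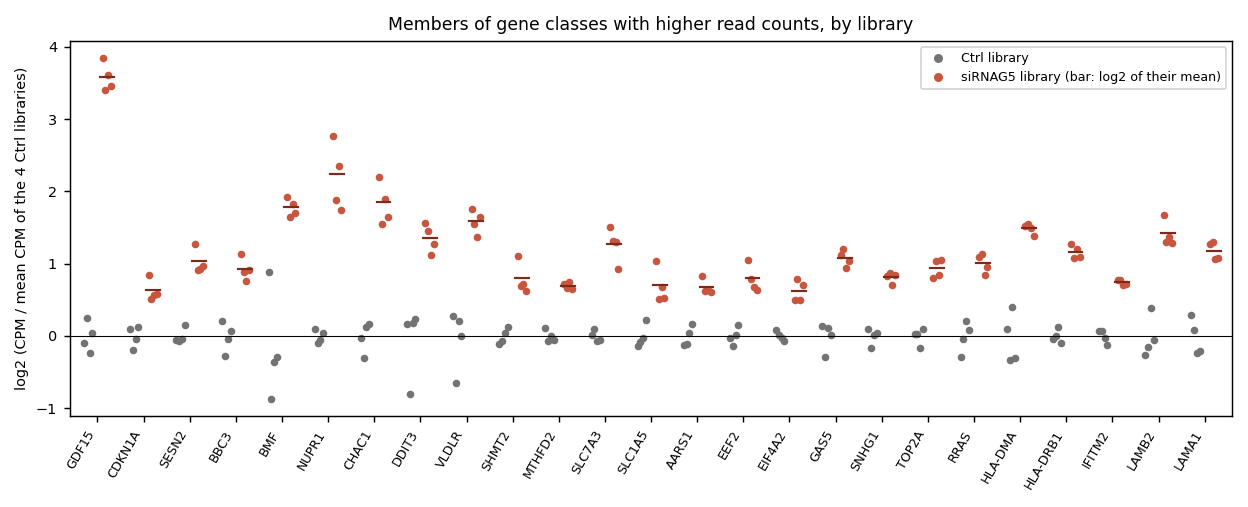
Log2 ratio of each library's CPM to the mean of the 4 Ctrl libraries (vertical axis) for 25 genes of the classes with higher read counts (horizontal axis), with Ctrl in grey, siRNAG5 in red and a bar at the log2 of the siRNAG5 mean. All 25 were taken from called genes whose groups do not overlap, so the red points lie above the grey points by that choice. GDF15 and NUPR1 stand highest, and the Ctrl libraries of BMF and DDIT3 are spread widely.

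Over all genes, the 10 largest decreases and 10 largest increases among called genes with a symbol and without overlap included genes outside these classes. MCFD2 (ENSG00000180398, chromosome 2 from 46901870.0 to 46941855.0), a cargo receptor subunit of the early secretory pathway, was at 50.7, 54.5, 50.98 and 48.2 CPM in Ctrl 1 to 4 and 16.8, 18.2, 19.7 and 18.8 CPM in siRNAG5 1 to 4, a log2 FC of -1.47 (SE 0.08, adjusted p = 7.96e-14). Its 3' UTR holds 3 matches to the seed of the Gemin5 siRNA. BCYRN1, a neuronal cytoplasmic RNA, was at 26.99, 26.01, 12.6 and 11.7 CPM in Ctrl 1 to 4 and 4.76, 9.42, 7.09 and 4.87 CPM in siRNAG5 1 to 4, where Ctrl 1 and 2 lay apart from Ctrl 3 and 4. Among the increases, CDC42EP5, the hormone genes INHBE and ADM2, AGAP2 and SLC16A4 had log2 FC between 2.41 and 2.56, and no Ctrl library held more than 0.541 CPM of any of them. These genes passed the filter on low counts only through siRNAG5, and their place in this ranking rests on that.

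The direction of change varied with the abundance and structure of genes, which the classes above did not use. Among 11884 protein-coding genes, the median log2 FC fell from 0.25 in the lowest quintile of abundance to -0.20 in the highest. The share called lower rose from 2.69% to 14.1% over the same quintiles, and the share called higher fell from 17.3% to 1.72%. Thinning all libraries to the depth of the shallowest left these medians at 0.25 and -0.19. Abundance was taken from these 8 libraries.

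Genes with many introns were higher. The median was -0.09 for 2 to 4 introns, 0.05 for 10 to 19 and 0.26 for 20 or more, where 20.8% were called higher and 1.04% lower. Genes with 20 or more introns also had the highest median within the lowest, middle and top quintiles of abundance. In the top quintile of abundance the median was -0.28 for 0 to 4 introns and 0.14 for 20 or more, and in the lowest quintile it was 0.15 and 0.37. Genes with the shortest quintile of spliced transcripts had a median of -0.15, and 13.9% were called lower, against 0.16 and 2.61% in the longest quintile. For the length of the whole gene the medians were -0.08 and 0.15.

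GC content marked the increases. In the highest quintile, above 58.6% GC, 21.4% of genes were called higher and the median was 0.16, against 5.13% and -0.02 in the lowest quintile, or 0.03 for the latter with upper-quartile factors. Among genes of the lowest abundance quintile, the shares called higher were 32.6% and 8.73% at the high and low ends of GC. In the top abundance quintile the medians at both ends were -0.18. With the longest transcript of each gene in place of the canonical one, the medians of the outer quintiles were -0.02 and 0.16 for GC, -0.13 and 0.16 for spliced length.

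**Figure D5:**
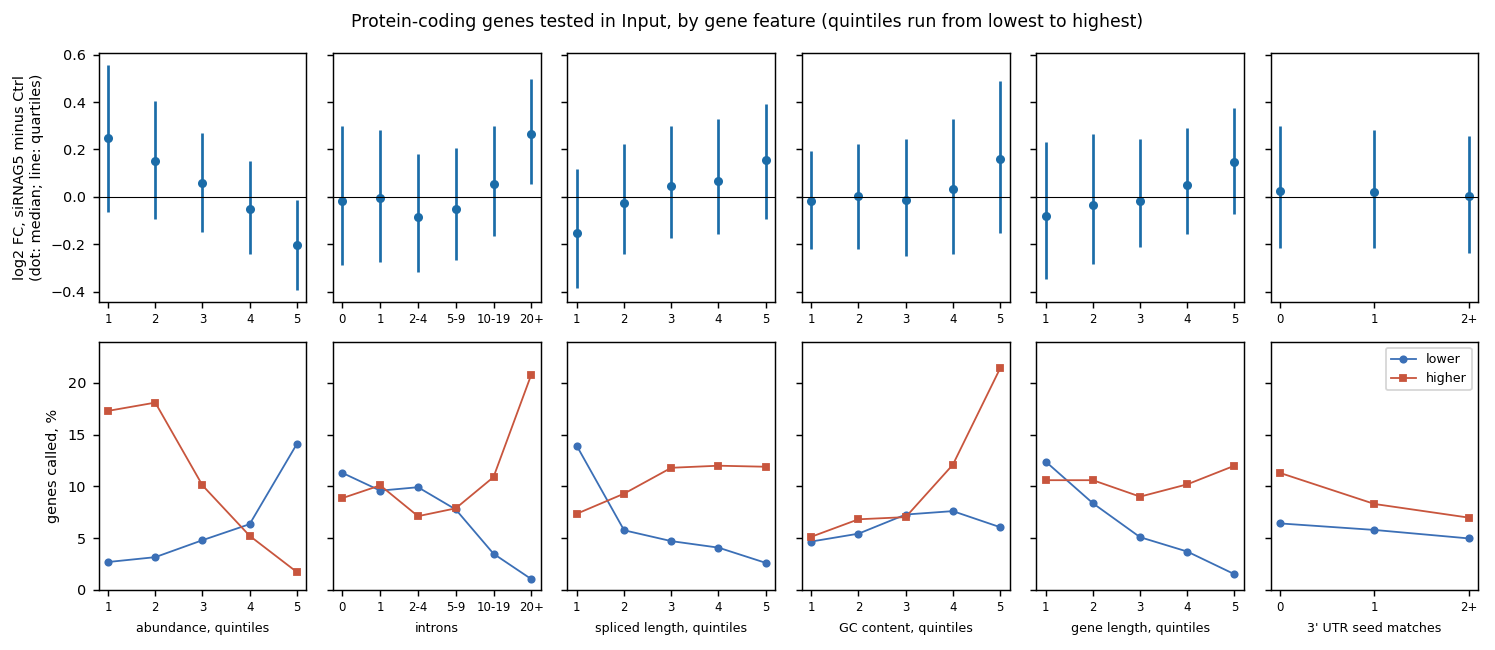
Protein-coding genes tested, by quintiles of abundance, number of introns, quintiles of spliced length, GC content and gene length, and number of 3' UTR matches to the Gemin5 siRNA seed (horizontal axes). Upper panels give the median log2 FC (dot) and quartiles (line), and lower panels the percentage called lower (blue) or higher (red). The median goes from 0.25 to -0.20 over the abundance quintiles and reaches 0.26 at 20 or more introns, and is 0.02, 0.02 and 0.00 with 0, 1 and at least 2 seed matches.

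Classes sat differently in these features. Mitochondrial ribosomal proteins had 66 of 76 and ribosome biogenesis factors 45 of 79 members in the top abundance quintile, whose median was -0.20. Cytosolic ribosomal proteins had 76 of 79 there, but a median of -0.03. SR splicing factors had 8 of 12 there, at a median of -0.49. Integrated stress response genes had a median of 2 introns against 8 for all protein-coding genes tested. The part of abundance, length and GC content in the class values was not tested.

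Genes with the donor letters of U12-type introns (ATATCCT or GTATCCT at the 5' splice site), the introns of the minor spliceosome, were close to other genes. The 514 such genes had a median of 0.02, with 5.06% called lower and 8.56% called higher, and the 11122 other genes with introns had 0.02, 6.15% and 10.6%. Among genes with 5 or more introns the medians were 0.05 in both.

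Protein-coding genes with 0, 1 and at least 2 matches to AAGAGAA in the 3' UTR had medians of 0.02, 0.02 and 0.00, and 6.42%, 5.79% and 4.97% of them were called lower. Those called higher were 11.3%, 8.30% and 6.98%. With 3 or more matches, as in MCFD2, the median of 271 genes was -0.03, and 7.01% were called lower and 3.69% higher. Because long 3' UTRs hold more matches, genes were divided by 3' UTR length. In the short tertile (up to 750 bases) the median was -0.12 with a match, in 224 genes, and -0.02 without, and 12.5% and 8.87% were called lower. In the middle tertile it was 0.01 and 0.07, and in the long tertile 0.03 and 0.02. The seed match of the control antisense strand, TGTATTA, gave -0.02 with and -0.02 without in the short tertile, 0.05 and 0.06 in the middle tertile, and 0.01 and 0.04 in the long tertile. With 3 or more matches to it, the median of 149 genes was 0.07, and 5.37% were called lower and 6.04% higher. The part of seed matches in these values was not tested.

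Kinds of genes differed in their share of increases. Long noncoding RNA genes were called higher in 15.3% of 1145 and lower in 5.94%, with a median of 0.12, and processed pseudogenes in 2.56% and 2.83% of 743. By chromosome, medians of the nuclear genome ranged from -0.02 on chromosome 20 to 0.07 on chromosome 18, and the 17 genes tested on the mitochondrial chromosome had a median of -0.16.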

How the data were processed

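Cytoplasmic RNA of 8 Input libraries (4 Ctrl, 4 siRNAG5) was analysed, and the Polysome libraries were not used here. The deposited values are raw read counts per gene, which the authors obtained with QoRTs after alignment of paired reads to GRCh38 with STAR 2.5.3a. The 5 lines of each file that name no gene, which hold reads on no gene, on several genes or at several places, were dropped. Reads on no gene were 0.667 to 0.790% of a library, those on several genes 7.02 to 7.41%, and those at several places 4.88 to 6.04%.

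Counts were filtered with filterByExpr, scaled by TMM and compared with edgeR 4.0.16 (quasi-likelihood test with treatment alone in the model, R 4.3.3), with p-values adjusted by the Benjamini-Hochberg method over 14134 genes. A gene low in 1 group could pass that filter through the other group alone, and its fold value then rests partly on that choice. SE is the log2 FC divided by the square root of F. The method was tested on simulated data for this comparison, in which 171 of 200 genes changed by a log2 FC of 1 were recovered among 13976 genes, with 4 false calls. The simulation changed far fewer genes than the 2330 called here and held no shift with abundance and no liver reads. It therefore does not give the rate of false calls in these data. Single sums were compared by exact permutation tests, of which 4 against 4 libraries can give no p below 0.0286. Depth limits low genes most, and CPM values cover counting error only through the replicates.

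Gene names, introns, lengths, GC content and 3' UTRs came from GENCODE v44, a later annotation of the authors' build, which named 57532 of 58302 identifiers. The siRNA strands were read from the labels and the target site from the GENCODE transcripts.

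The members and the 58 classes and 6 sample checks were chosen with earlier results of these data known. Named genes were GEMIN5, the first 2 listed members of each class, up to 4 called members in each direction with the largest log2 FC and no overlap, all members of counts up to 5, and the 10 largest changes in each direction over all genes. GEMIN7, SNRPD2, SRSF9, SRSF10, MRPL10, DDIT4, TRIB3, TIGAR, ASNS and EEF1G were named after their values were seen. Alternatives were DESeq2 1.42.0, RLE and upper-quartile factors, no filter, thinned counts, a replicate block and each library left out. Some genes that the rule names are not reported here.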

Additional observations from a re-analysis of the deposited data

Results flagged for a closer look

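In 25 of 478 groups of 4 libraries checked for the genes named above, 1 library lay farther from its nearest neighbour than Dixon's critical share of the group's range allows, and chance alone would give about 5% of groups. The share is given after each gene. No explanation was tested.

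In the Ctrl group the library standing apart was the highest for SRSF7 (0.887, 526 CPM against 429 CPM in the next library), SNRNP40 (0.883), SESN2 (0.883), SRSF6 (0.875), WDR77 (0.867), IFITM1 (0.849), DNAJB1 (0.837) and MRPL20 (0.831). It was the lowest for DDIT3 (0.916, 7.14 CPM against 13.9 CPM), ZMAT3 (0.857, 0.492 CPM against 1.13 CPM), POLD1 (0.834) and EIF4E (0.832).

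In the siRNAG5 group it was the highest for NDUFA8 (0.938, 254 CPM against 227 CPM), SNRNP25 (0.925), EIF5A (0.915), TIMM10 (0.909), LAMTOR4 (0.865), SESN2 (0.851), POLD1 (0.840), SHMT2 (0.838), AARS1 (0.835) and LAMTOR2 (0.835). It was the lowest for NOP16 (0.872, 77.7 CPM against 91.9 CPM), CCT6A (0.862) and MGA (0.841).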

How the results depend on the processing

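The log2 FC of GEMIN5 kept its direction and its side of the threshold in all 18 alternatives, from -1.46 to -1.34 with 1 library left out. Counts of called genes were 915 lower and 1110 higher by DESeq2, 696 and 1197 without Ctrl 2, and 2695 and 2535 with no fold limit. Without the fold limit the excess of higher calls was thus absent. Over the other single libraries left out, 805 to 956 genes were lower and 1420 to 1556 higher. No shared effect of the replicate number was seen, since deviations of libraries with the same number correlated at -0.031, -0.011, -0.005 and 0.076. A fit with the number as a replicate block gave 847 lower and 1466 higher. Whether samples of the same number were prepared together cannot be told from these values. With 1 library left out, class medians close to 0 changed sign for iron-responsive mRNAs (-0.08 to 0.03), RNA interference machinery (-0.16 to 0.004), mitosis (-0.04 to 0.08), glycolysis (-0.04 to 0.03) and chromosome 19 zinc finger genes (-0.04 to 0.01). So did the medians of genes in the lowest GC quintile (-0.05 to 0.04) and of genes with a seed match (-0.01 to 0.04). Upper-quartile factors gave positive medians for cytosolic ribosomal proteins (0.02), initiation factors (0.02) and the BCL2 family (0.02), and thinning gave 0.002 for mTOR and LARP genes, all negative as reported. The log2 FC of MALAT1 was -0.73 and not called, but 1.84 without Ctrl 3 and 4, a fit chosen after seeing the data, as was that without Ctrl 1 and 2. Its reads in Ctrl 3 and 4 were the highest, and the cause was not tested. Over 233 named genes and 18 alternatives, 168 values lost the call and 48 gained it. Depth limits genes of few reads, such as histones and HLA genes, most.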
